A study of Mus musculus with 5 samples.

Results

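The genes described here encode the extracellular and core parts of the Wnt pathway in 3T3-L1 cells, a mouse preadipocyte line that is differentiated in culture into adipocytes. They are the Wnt ligands, the R-spondins, the Frizzled receptors with the co-receptors *Lrp5*, *Lrp6* and *Ror2*, the secreted antagonists of the *Sfrp* and *Dkk* families with *Wif1*, and the intracellular or feedback genes *Axin2*, *Lef1*, *Tcf7l1*, *Tcf7l2* and *Znrf3*. They were chosen by gene symbol, with earlier results of these data known, and 50 of the 19505 genes on the arrays were found. *Ctnnb1* and *Tcf7*, which the choice also named, were not analysed here. Each of the 50 genes had a single probe set. The 5 Clariom S Mouse arrays held RNA of 3 MM-3T3-L1 and 2 control samples. For MM-3T3-L1s, confluent preadipocytes shared RPMI-1640 medium for 48 h with the human myeloma line MM.1S across a transwell membrane with 0.4 µm pores. Control preadipocytes were kept in the same medium alone for that time. After the myeloma cells were removed, both groups received the same 7-day adipogenic program, with 4 days of IBMX, dexamethasone and insulin, 2 days of insulin and 1 day of basal medium. All samples come from 1 mouse cell line and 1 myeloma line, and the labels do not say whether replicates were separate cultures, so a p-value here covers no more than the spread among these arrays, which may be technical.

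Wnt proteins are secreted lipid-modified ligands that bind Frizzled receptors. Together with LRP5 or LRP6 they stabilise beta-catenin, which enters the nucleus and activates genes through the TCF/LEF transcription factors. R-spondins strengthen this signal by removing the ubiquitin ligases ZNRF3 and RNF43, which otherwise clear Frizzled from the cell surface, while SFRP, DKK and WIF1 proteins block ligands or co-receptors. In preadipocytes, Wnt/beta-catenin signaling, for example through WNT10B, is known to hold back PPARG and CEBPA and so to restrain adipogenesis.

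Values are log2 signals, and differences are MM-3T3-L1s minus controls. A level of 3.59 was used as background, below which lay 95% of 1450 genes for smell, taste and pheromone receptors. A gene is called higher or lower where limma's moderated test, two-sided, gave an unadjusted p at or under 0.05 and the fold change passed 1.5, which are the thresholds of the study's methods. Array medians ranged from 4.47 to 4.53 in MM-3T3-L1s and from 4.48 to 4.52 in controls. The SD over probe sets was 2.32 to 2.37 in MM-3T3-L1s and 2.39 to 2.42 in controls. The lower quartile was 2.74 to 2.85 in MM-3T3-L1s and 2.68 to 2.72 in controls. MM.1S replicate 3 had the lowest SD and the highest lower quartile, and the part of this in the results was not tested. Of 18 measured adipocyte markers, 16 lay above background, among them *Adipoq*, *Fabp4*, *Plin1* and *Pparg*. Their mean per array was 9.08 to 9.15 in MM-3T3-L1s and 9.08 to 9.29 in controls. The mean of 18 preadipocyte and fibroblast markers was 7.41 to 7.42 in MM-3T3-L1s and 7.53 to 7.58 in controls, and that of 9 macrophage markers was 3.82 to 3.92 in MM-3T3-L1s and 3.59 to 3.62 in controls, with 4 of the 9 above background. Of these 9, 7 had a difference above 0, the median difference was 0.22, and the defining markers *Adgre1*, *Csf1r* and *Itgam* were below background. The mean of 12 plasma and B cell markers, 2 of them above background, was 3.19 to 3.32 in MM-3T3-L1s and 3.11 to 3.12 in controls. The adipocyte marker means overlapped between the groups, and those of the other 3 lists given here did not. Means of endothelial, osteoblast and muscle markers overlapped too. As log2 of the summed signal, the plasma and B cell markers overlapped, at 8.01 to 8.24 in MM-3T3-L1s and 8.01 to 8.04 in controls. The summed preadipocyte and macrophage markers did not overlap. The part of these marker levels in the results on the Wnt genes was not tested. Single markers past the thresholds were *Cd14*, higher, and *Fasn*, *Retn* and *Postn*, lower.

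Of the 50 Wnt genes, 2 were higher in MM-3T3-L1s, *Rspo1* and *Wnt2*, 1 was lower, *Fzd2*, and 47 were neither. The shares were 4% higher, 2% lower and 6% together, where 0.91% of all 22206 probe sets were higher, 1.44% were lower and 2.35% were either. With 3 genes called, these shares rest on very few. After Benjamini-Hochberg adjustment over all probe sets, limma left 0 of the 50 genes below 0.05 and 0% of all probe sets. Without adjustment and at any fold change, limma gave 4 Wnt genes above 0 and 2 below 0 at a p of 0.05 or less, against backgrounds of 3.48% and 4.11%. The smallest adjusted p in the list was 0.374, for *Fzd2*. The median difference of the 50 genes was 0.08, beside 0.01 for all probe sets. The methods' own test, which takes each probe set alone and shares no variance, called *Fzd2* and no other member of the list, and 1.28% of all probe sets. With 3 against 2 arrays, an exact two-sided permutation test of a gene has 0.1 as its smallest p.

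**Figure D1:**
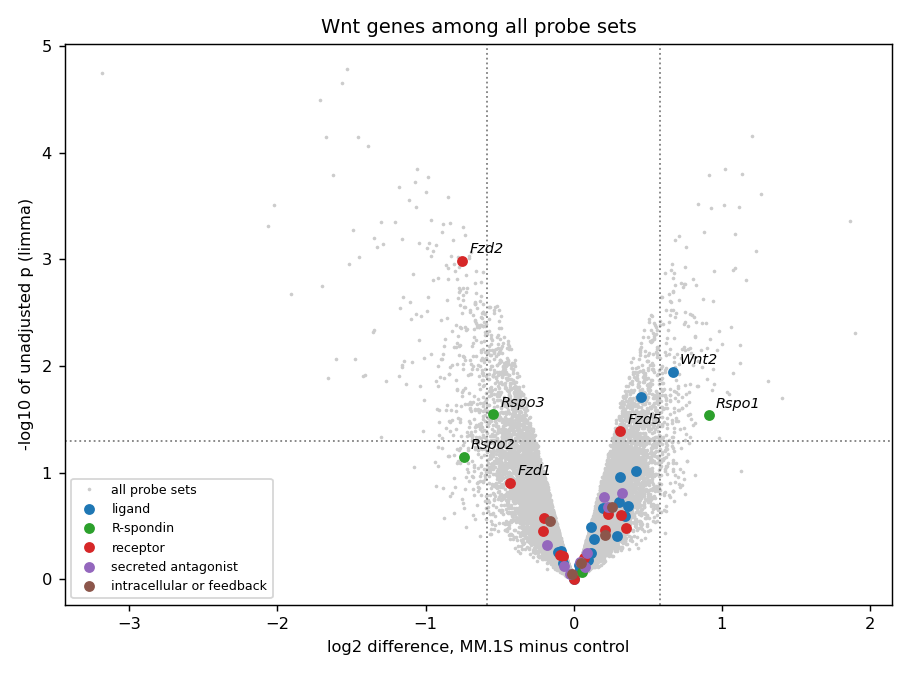
Each point is a probe set, with the log2 difference (MM.1S minus control) on the x axis and -log10 of limma's unadjusted p on the y axis; grey points are all 22206 probe sets, coloured points the 50 Wnt genes by role, and dotted lines the thresholds of p and fold change. *Rspo1*, *Wnt2* and *Fzd2* lie past both lines, while *Rspo3* at -0.54 lies short of the fold-change line and *Rspo2* short of the p line.

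The R-spondins were the role group with the widest range of differences, and all 4 genes lay above background. *Rspo1* was higher in MM-3T3-L1s. Its log2 signal was 4.02, 4.69 and 4.96 in MM-3T3-L1s and 3.38 and 3.92 in controls. All MM-3T3-L1 arrays thus lay above both control arrays, but the lowest MM-3T3-L1 array and the highest control array were close, and control replicate 1 lay below the background level. The difference was 0.91 (SE 0.32), a 1.88-fold increase. Its adjusted p in limma was 0.615 and ranged over the alternatives from 0.447 to 0.870. The methods' own test did not call it. With 1 array fewer, *Rspo1* missed the p threshold without MM.1S replicate 2 (0.84), without MM.1S replicate 3 (0.71), without control replicate 1 (0.64) and without control replicate 2 (1.18), where the values are log2 differences.

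The stretch of DNA before the RefSeq start of *Rspo1* is shown because it is the gene with the largest difference in the list. It covers 221 bases on the plus strand of GRCm38.p6, chr4:124986180-124986400, and is written in lower case since none of the TCF/LEF letters described further on was found in it.
Rspo1: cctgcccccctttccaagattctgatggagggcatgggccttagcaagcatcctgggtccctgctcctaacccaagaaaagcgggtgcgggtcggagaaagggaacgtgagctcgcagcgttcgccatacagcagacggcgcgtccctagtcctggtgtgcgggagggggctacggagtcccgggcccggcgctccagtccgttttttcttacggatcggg
Of these bases, 63.3% were G or C.

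*Rspo3*, whose product acts on the same receptors as R-spondin 1, did not pass the fold-change limit. Its log2 signal was 4.84, 5.06 and 4.95 in MM-3T3-L1s and 5.22 and 5.76 in controls. The MM-3T3-L1 arrays were close together and below both controls. The difference was -0.54 (SE 0.19), a 1.46-fold difference just outside the limit of 1.5, with an unadjusted p of 0.0282 from limma. It passed both thresholds without MM.1S replicate 2 (-0.60) and without control replicate 1 (-0.81). Without control replicate 2 the difference was -0.27, and the unadjusted p from limma was then 0.137. It was 0.0863 without MM.1S replicate 1 and 0.0676 without MM.1S replicate 3. *Rspo2* read 4.35, 4.51 and 3.51 in MM-3T3-L1s and 4.61 and 5.12 in controls. Here MM.1S replicate 3 stood below the other MM-3T3-L1 arrays and the background level, and the groups did not overlap. The difference of -0.74 (SE 0.34) did not reach the p threshold in limma (0.0708). It was -0.43 without MM.1S replicate 3 and -0.49 without control replicate 2, and larger in size than with all arrays in the other 3 fits that left out an array. *Rspo4* overlapped between groups, at 4.85, 4.37 and 5.40 in MM-3T3-L1s and 4.85 and 4.78 in controls, with a difference of 0.06 (95% interval -0.67 to 0.79).

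Among the 10 Frizzled receptors, *Fzd2* was lower in MM-3T3-L1s and none was higher, beside 1.44% lower and 0.91% higher of all probe sets. *Fzd2*, a receptor of both beta-catenin-dependent and other Wnt signals, read 6.86, 6.87 and 6.64 in MM-3T3-L1s and 7.54 and 7.54 in controls. The groups lay apart by more than the spread within either. The difference was -0.75 (SE 0.12), a 1.68-fold decrease, with an unadjusted p of 0.00103 and an adjusted p of 0.374 from limma. The call held without each array in turn, with differences from -0.79 to -0.67, and with the methods' own test. Among the alternatives run, it was lost only at the stricter fold-change limit of 1.8. Over the alternatives the adjusted p ranged from 0.146 to 0.858.

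*Fzd1*, a close relative of *Fzd2*, read 7.37, 7.37 and 6.77 in MM-3T3-L1s and 7.80 and 7.39 in controls. Its arrays did not overlap, though the nearest arrays of the groups were close, and the difference of -0.43 (SE 0.24) did not pass. It was -0.23 without MM.1S replicate 3 and likewise without control replicate 1. *Fzd5* lay on the other side, at 6.54, 6.73 and 6.71 in MM-3T3-L1s and 6.31 and 6.39 in controls. Its difference of 0.31 (SE 0.12) had an unadjusted p of 0.0406 from limma and was under the fold-change limit. Leaving out any array but MM.1S replicate 1 brought that p above 0.05, with differences from 0.27 to 0.35. *Fzd4*, the receptor for norrin as well as for Wnts, and *Fzd7* overlapped between groups, with differences of -0.21 and -0.07. *Fzd8* differed by 0.32 and *Fzd9* by -0.09, also with overlapping arrays. *Fzd3*, *Fzd6* and *Fzd10* lay at or below background.

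**Figure D2:**
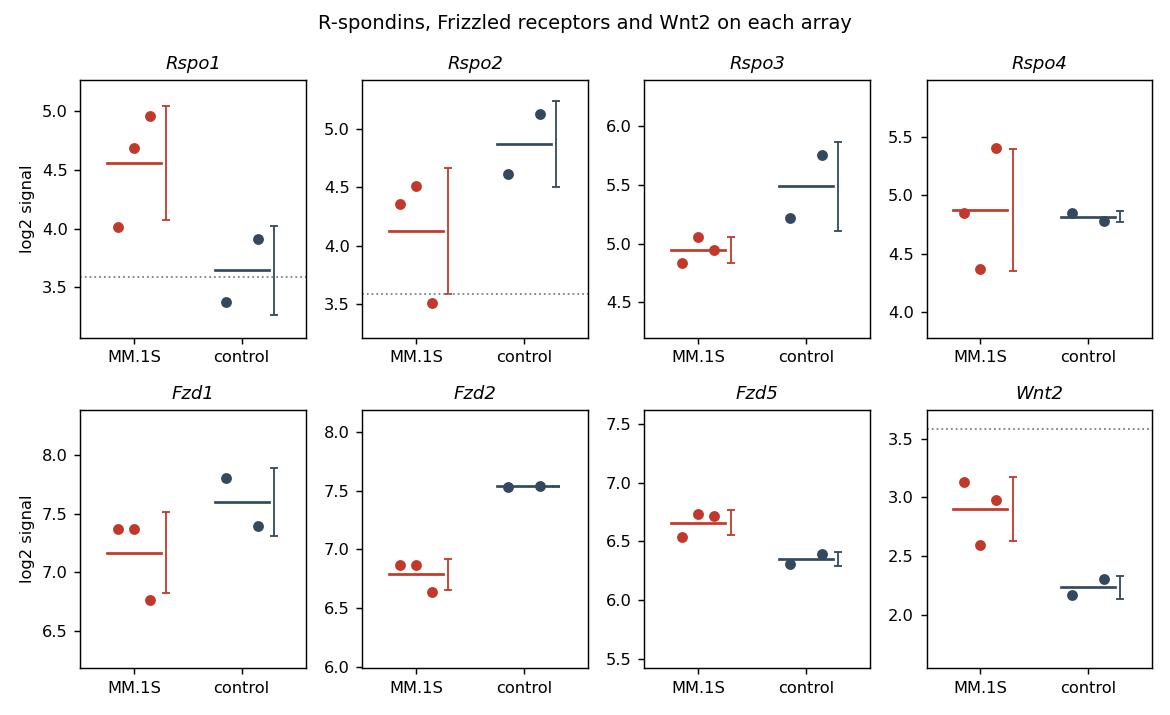
Log2 signal on each array for the 4 R-spondins, *Fzd1*, *Fzd2*, *Fzd5* and *Wnt2*, with MM-3T3-L1s (n = 3, red) left of controls (n = 2, blue); horizontal bars are means, error bars SD, the dotted line the background level of 3.59, and every panel spans the same number of log2 units. *Rspo1* and *Fzd5* lie above and *Rspo2*, *Rspo3*, *Fzd1* and *Fzd2* below the controls, and *Wnt2* lies below the background level on all arrays.

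The co-receptors *Lrp5* and *Lrp6* were measured well above background and overlapped between groups. *Lrp6* read 7.77, 8.12 and 7.94 in MM-3T3-L1s and 7.96 and 7.93 in controls, a difference of -0.0012 (95% interval -0.34 to 0.34), whose sign turned with normalization. *Lrp5* read 8.29, 8.20 and 8.21 in MM-3T3-L1s and 8.33 and 7.997 in controls, a difference of 0.07 (95% interval -0.27 to 0.41). Intervals of this width do not show that the levels were equal. *Ror2*, a receptor tyrosine kinase for WNT5A, lay below background in mean, with 3.69, 2.53 and 3.01 in MM-3T3-L1s and 2.75 and 2.70 in controls.

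Of the 19 Wnt ligands, 1 was higher, *Wnt2*, none was lower and 18 were neither, and 11 lay above background. Over all probe sets the shares were 0.91% higher and 1.44% lower, so 1 call says little about a family of this size. *Wnt2*, which acts mainly through beta-catenin, read 3.13, 2.60 and 2.97 in MM-3T3-L1s and 2.16 and 2.30 in controls. All 5 arrays lay below the background level, so the signal was not told apart from background, although the groups did not overlap. The difference was 0.67 (SE 0.18). The adjusted p in limma was 0.548 and ranged over the alternatives from 0.377 to 0.858. The call was lost without MM.1S replicate 1 (0.55), without control replicate 1 (0.60) and with the methods' own test. It was also lost after quantile normalization once more (0.58) and at the fold-change limit of 1.8. Being dim, *Wnt2* was left out of the fit without dim probe sets. *Wnt8b*, another ligand below background, read 2.40, 2.10 and 2.20 in MM-3T3-L1s and 1.67 and 1.88 in controls, a difference of 0.46 under the fold-change limit. Probe sets at or below background had a median difference of 0.08 over the whole array, and 0.0043 after quantile normalization once more. The 21 Wnt genes at or below background had a median difference of 0.14, and 0.055 after that normalization. The smell, taste and pheromone receptor genes had a median of 2.19 to 2.30 in MM-3T3-L1s and 2.13 to 2.17 in controls, and their part in the differences of the dim Wnt ligands was not tested.

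*Wnt10b*, *Wnt10a* and *Wnt6*, ligands known to restrain adipogenesis in mouse cells, did not pass the thresholds. *Wnt10b* read 4.64, 4.52 and 4.04 in MM-3T3-L1s and 4.21 and 3.97 in controls, a difference of 0.31 (95% interval -0.20 to 0.82). *Wnt10a*, its neighbour in the family, differed by 0.20 (95% interval -0.15 to 0.54) and *Wnt6* by 0.14, the last below background. *Wnt5a*, a ligand that mostly acts without beta-catenin, did not pass them either. Its log2 signal was 5.21, 4.98 and 4.76 in MM-3T3-L1s and 4.76 and 4.59 in controls. Its lowest MM-3T3-L1 array equalled control replicate 1, and the difference was 0.31 (95% interval -0.10 to 0.72). These 4 ligands were named after their values had been seen.

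*Wnt9b* read 4.86, 4.06 and 4.01 in MM-3T3-L1s and 3.99 and 3.93 in controls. MM.1S replicate 1 stood apart, and without it the difference was 0.07, against 0.35 (SE 0.27) with all arrays. *Wnt11*, a ligand of cell polarity, had the largest difference among ligands whose mean over the 5 arrays lay above background, 0.37 (SE 0.26). Its signal was 3.54, 3.60 and 4.29 in MM-3T3-L1s and 3.28 and 3.60 in controls, so MM.1S replicate 1 and control replicate 1 lay below background, as did the control mean of 3.44. The difference was 0.13 without MM.1S replicate 3 and 0.21 without control replicate 1. Over the family, 15 of 19 differences were above 0 and the median was 0.14, beside 11728 of 22206 above 0 and a median of 0.01 for all probe sets. After quantile normalization once more, the count above 0 was again 15 of 19, with a median of 0.15.

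**Figure D3:**
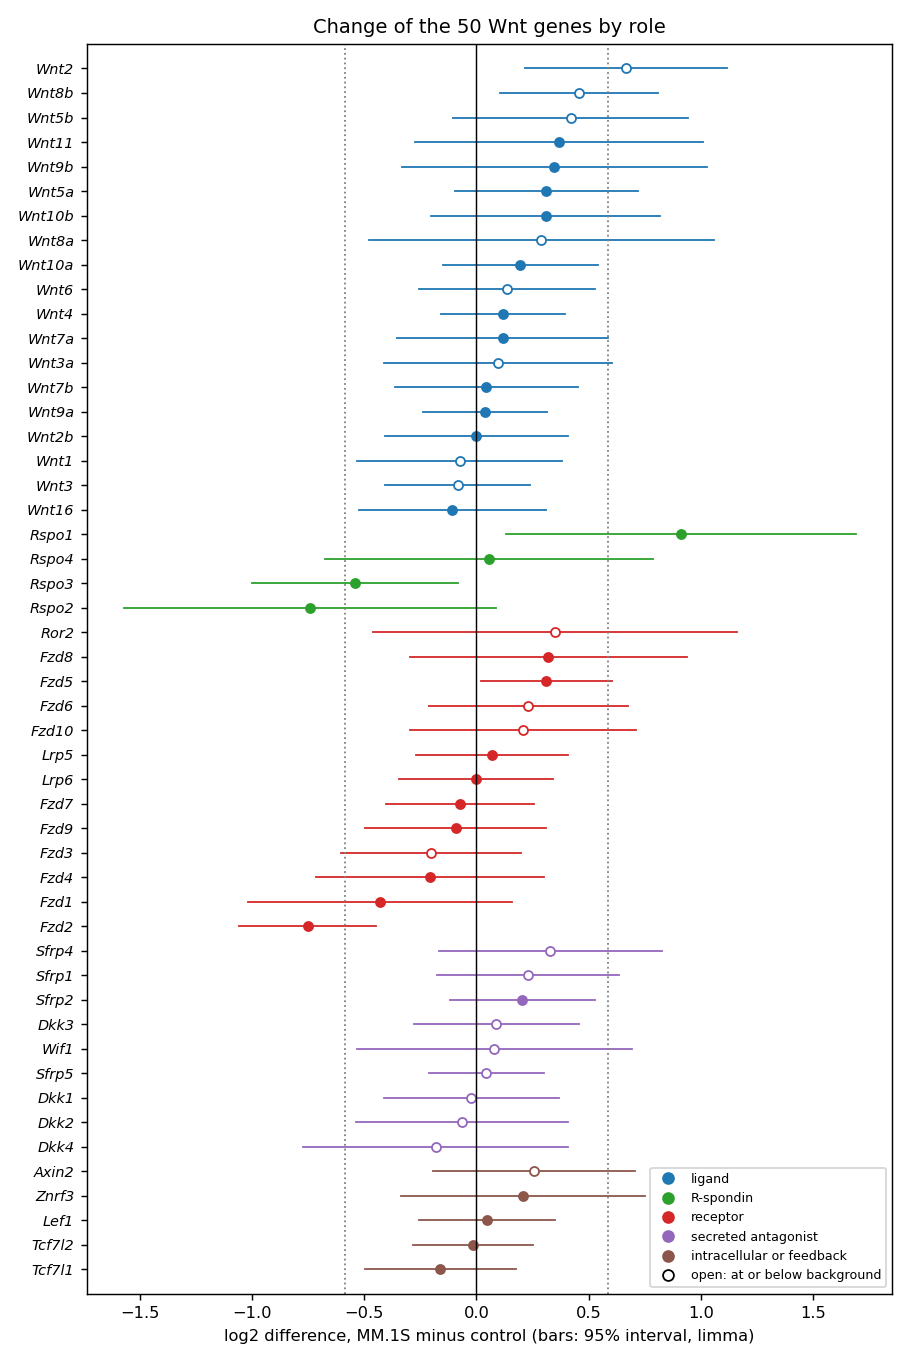
Log2 difference (MM.1S minus control) of each of the 50 Wnt genes on the x axis, ordered within role; bars are limma's 95% intervals, open circles mark genes at or below background, and dotted lines mark the fold change of 1.5. The intervals of *Rspo1*, *Wnt2*, *Wnt8b*, *Fzd5*, *Rspo3* and *Fzd2* leave out 0, and those of the other 44 include it.

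None of the 9 secreted antagonists was higher or lower, beside 2.35% of all probe sets, and *Sfrp2* alone lay above background. *Sfrp2*, which encodes a Frizzled-like protein that binds Wnts, read 8.96, 8.79 and 8.81 in MM-3T3-L1s and 8.77 and 8.53 in controls. The MM-3T3-L1 arrays were above both controls by a small margin, and the difference was 0.20 (SE 0.13, 95% interval -0.12 to 0.53). It was 0.084 without control replicate 2 and 0.33 without control replicate 1. *Sfrp5*, an antagonist known from mature mouse fat, read 3.05 to 3.13 in MM-3T3-L1s and 3.05 in both controls. *Dkk1*, an LRP5 and LRP6 blocker known from myeloma bone disease, lay at 2.67 to 3.12 in MM-3T3-L1s and 2.89 to 2.96 in controls, below background. The differences of the 4 *Dkk* genes ranged from -0.18 to 0.09, all of them below background. *Wif1*, which binds Wnts directly, differed by 0.08.

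The nuclear and feedback genes were neither higher nor lower, where 2.35% of all probe sets were either. *Axin2*, a direct beta-catenin target that feeds back on the pathway, read 3.05, 3.51 and 3.08 in MM-3T3-L1s and 2.84 and 3.07 in controls, all below background. The difference was 0.26 (95% interval -0.19 to 0.71), and 0.11 without MM.1S replicate 2 or 0.14 without control replicate 1. *Znrf3*, the ubiquitin ligase opposed by R-spondins, read 4.83, 5.52 and 5.23 in MM-3T3-L1s and 4.88 and 5.09 in controls, with overlapping arrays and a difference of 0.21 (95% interval -0.34 to 0.75). That difference was 0.044 without MM.1S replicate 2, 0.11 without control replicate 1 and 0.39 without MM.1S replicate 1. *Lef1* read 6.20, 6.42 and 6.20 in MM-3T3-L1s and 6.19 and 6.26 in controls, a difference of 0.05 (95% interval -0.25 to 0.35). It turned to -0.02 without MM.1S replicate 2.

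*Tcf7l2*, the main TCF factor of many adult tissues, read 9.39, 9.33 and 9.24 in MM-3T3-L1s and 9.34 and 9.33 in controls. The arrays spanned little and overlapped, and the difference was -0.01 (95% interval -0.28 to 0.25), with a sign that turned with normalization. *Tcf7l1*, which mostly represses targets, read 7.58, 7.83 and 7.90 in MM-3T3-L1s and 7.90 and 7.96 in controls. The groups did not overlap, though their nearest arrays were equal to the second decimal, and the difference was -0.16 (SE 0.14), or -0.066 without MM.1S replicate 1. Arrays of the groups did not overlap for 12 of the 50 genes, with MM-3T3-L1s above for 7 and below for 5. Of all probe sets, 11.9% were apart upward, 12.2% downward and 24.1% either way.

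**Figure D4:**
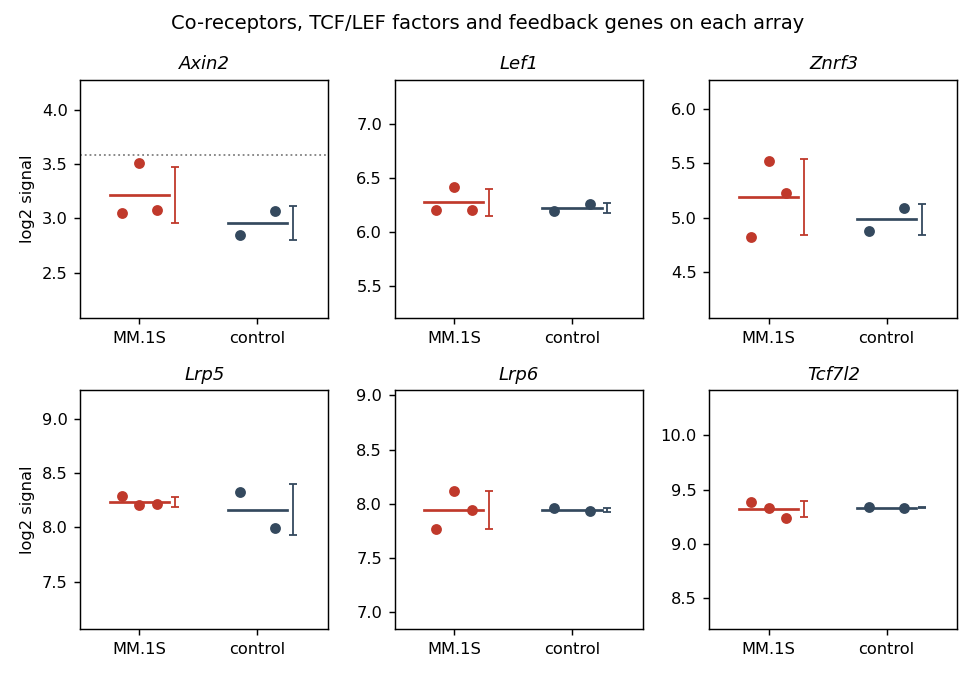
Log2 signal on each array for *Axin2*, *Lef1*, *Znrf3*, *Lrp5*, *Lrp6* and *Tcf7l2*, with MM-3T3-L1s (n = 3, red) left of controls (n = 2, blue); horizontal bars are means, error bars SD, the dotted line the background level, and every panel spans the same number of log2 units. The groups overlap for all 6 genes, and *Axin2* lies below the background level on all arrays.

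Other genes of the pathway were taken from a list, of which 104 of 108 were measured and 87 lay above background. None was higher or lower, where 2.35% of all probe sets were either. The median difference was 0.0049, beside 0.01 for all probe sets. At an unadjusted p of 0.05 or less and any fold change, limma gave 3 above 0 and 6 below 0 of the 104, where the shares over all probe sets were 3.48% and 4.11%. By role, those below 0 were the scaffold gene *Axin1*, the kinase gene *Gsk3a* and the tankyrase gene *Tnks2* of the destruction complex, the beta-catenin partner *Bcl9l*, the formin gene *Daam1* of the polarity branch and the glypican gene *Gpc6*. *Axin1* read 6.61, 6.81 and 6.51 in MM-3T3-L1s and 7.03 and 7.30 in controls, a difference of -0.52 (SE 0.15) that was short of the fold-change limit. Above 0 were the secreted LRP5/6 inhibitor *Sost* (0.47), the membrane inhibitor *Apcdd1* (0.33) and *Draxin* (0.57), the last below background. These 9 genes were named after their values had been seen. The counts depended on single arrays, with 1 higher and 2 lower without MM.1S replicate 2 and likewise without MM.1S replicate 3, 2 higher and 3 lower without control replicate 1, and 0 higher and 2 lower without control replicate 2.

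Of 38 listed target genes of Wnt/beta-catenin signaling, 34 were measured. None was higher in MM-3T3-L1s, 2 were lower, *Ndrg1* and *Fst*, and 32 were neither, with a median difference of 0.07. The lower genes were 5.88% of the list, where 1.44% of all probe sets were lower, and this share rests on 2 genes. *Ndrg1*, which is also induced by hypoxia, read 5.51, 5.27 and 6.43 in MM-3T3-L1s and 6.79 and 7.21 in controls, a difference of -1.27 (SE 0.36). It missed the p threshold without MM.1S replicate 1 (-1.15), without control replicate 1 (-1.47) and without control replicate 2 (-1.06). *Fst*, which encodes the activin antagonist follistatin, read 6.64, 6.71 and 6.82 in MM-3T3-L1s and 7.00 and 7.65 in controls, a difference of -0.60 (SE 0.21). Leaving out any array but control replicate 1 ended its call, with differences from -0.65 to -0.28. The methods' own test called neither gene. At an unadjusted p of 0.05 or less and any fold change, limma gave 5 targets above 0 and 2 below 0. The shares over all probe sets were 3.48% and 4.11%. The 5 targets above 0 were *Apcdd1*, *Ccn5*, *Cd44*, *Fosl1* and *Id2*, with differences of 0.33 to 0.56. None of them was past the fold-change limit, and they were named after their values had been seen.

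**Figure D5:**
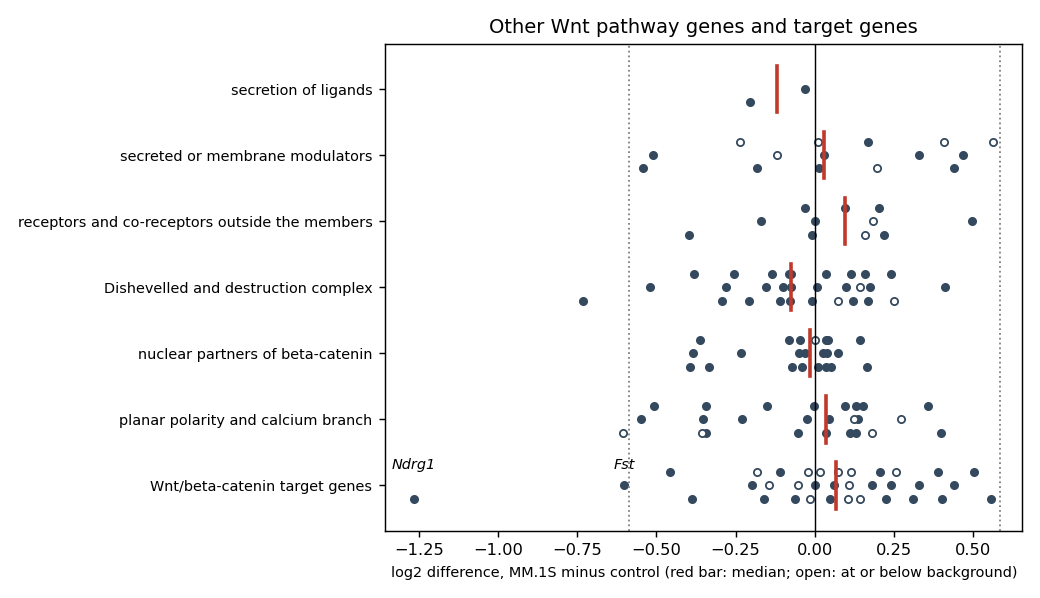
Log2 difference (MM.1S minus control, x axis) of the 104 other pathway genes by role and of the 34 target genes; each point is a gene, open points lie at or below background, red bars are medians and dotted lines mark the fold change of 1.5. *Ndrg1* and *Fst* are named as the 2 lower genes, and medians of the 7 groups lie between -0.12 and 0.10. *Apcdd1* and some other genes are drawn both by role and as target genes.

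The promoters of the genes were searched for the letters to which TCF/LEF factors bind. RefSeq promoter windows on GRCm38.p6 were matched by symbol for 33 of the 50 genes, as 40 windows. The 250 bases before the start set in each window were read. For *Rspo1* these bases end at chr4:124986429, past the gene start that bounds the stretch shown above. The motifs were CTTTGAA or CTTTGAT or CTTTGTA or CTTTGTT on both strands. At least 1 match was found in 6 of the 40 windows (15%), against 14.8% of all 32851 windows. G and C made up a median of 67.4% of the bases in the 40 windows and 52.4% in all windows. A match is a description of letters and not a binding site. The windows with a match belong to *Dkk1*, *Fzd7*, *Lef1*, *Tcf7l2*, *Wnt11* and *Wnt5b*, none of which was higher or lower. As 2.35% of all probe sets were either, 6 genes cannot show whether a match goes with a change. For *Lef1*, *Tcf7l2* and *Wnt11*, which are described above with their values, the matched letters stand in capitals, and no match was found for *Rspo1* or *Wnt2*. The promoters of *Fzd2*, *Rspo2* and *Rspo3* were not analysed here. The 3 stretches are read on the plus strand, at chr3:131156137-131156163 for 1 of the 4 windows of *Lef1*, chr19:55895297-55895320 for 1 of 2 of *Tcf7l2* and chr7:98835051-98835077 for 1 of 2 of *Wnt11*.
Lef1: aacctcagaaTACAAAGtaggattgca
Tcf7l2: aaatatcaggCTTTGTTcttttga
Wnt11: acgtgggcggATCAAAGcgacggtccg
The capitals of *Lef1* and *Wnt11* are the motif read from the opposite strand, and those of *Tcf7l2* from the same strand.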

How the data were processed

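Clariom S Mouse arrays of 3 MM-3T3-L1 and 2 control samples were analysed. The authors deposited log2 values that they had made from the scans with Partek by RMA, a method of background correction, quantile normalization and probe summary. Whether these 5 arrays were normalized alone is not given in the sources used here. The number of arrays limits the precision. No probe set was filtered. Of 22206 probe sets, 19572 carried 1 gene symbol and 2634 none in the platform annotation. The comparison used limma 3.58.1 (lmFit, eBayes) under R 4.3.3, group as the only term, 3 residual degrees of freedom and a prior of 2.79, with p-values adjusted over all probe sets. The test was checked on simulated data. The study's one-way ANOVA, an intensity trend with a robust prior, removal of dim probe sets, quantile normalization, median centring, a replicate block, array weights, a fold-change limit of 1.8, averaged probe sets and leaving out each array were alternatives.

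The members, gene lists and rule were chosen with earlier results of these data known. Genes named by rule were all Wnt genes past the thresholds, those above background whose groups did not overlap (up to 12), the core genes *Axin2*, *Lef1*, *Znrf3*, *Lrp5*, *Lrp6* and *Tcf7l2*, the largest difference above background in 4 roles, and list genes past the thresholds. Other genes in the text were chosen after their values were seen. Among cell type lists, 2 of 12 plasma and B cell, 1 of 8 endothelial, 3 of 7 osteoblast and 7 of 10 muscle markers lay above background, of which 1, *Sp7*, was higher and none lower.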

Additional observations from a re-analysis of the deposited data

How the results depend on the processing

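An intensity trend with a robust prior and median centring changed no count or call among the Wnt genes and named list genes. Averaging the probe sets of a gene could change no difference among them, since each of these genes had a single probe set. With the one-way ANOVA, 0 Wnt genes were higher and 0 target genes lower, among 104 higher and 180 lower probe sets. Without dim probe sets, 1 Wnt gene and 121 probe sets were higher. After quantile normalization once more, 1 Wnt gene was higher, and 1 target gene was higher and 1 lower. *Lrp6* turned to 0.048 and *Tcf7l2* to 0.010. With array weights 1 target gene was higher and *Tcf7l2* turned to 0.0060. At a fold-change limit of 1.8, 1 Wnt gene was higher and 0 lower, 1 target gene was lower, and 42 probe sets were higher and 93 lower. For the 2 shared replicate numbers, deviations from the group means correlated by -0.0274 and 0.0603. The deviations of 2 controls mirror each other, so these values cannot decide whether the arrays were paired. Replicate 3 exists only among MM-3T3-L1s, so a replicate block takes up that array. Its differences equal those without MM.1S replicate 3, such as 0.71 for *Rspo1*, and 1 residual degree of freedom remains. With this block the Wnt genes kept their counts of 2 higher and 1 lower. The fit without that array and without a block did not call *Rspo1*. With the block, 2 other pathway genes were higher and 2 lower, 1 target gene was higher, *Lrp6* turned to 0.0011 and *Tcf7l2* to 0.024.

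Leaving out 1 array gave 0 to 1 higher and 1 to 2 lower Wnt genes, 0 to 2 higher and 0 to 3 lower other pathway genes, 0 to 1 higher and 0 to 2 lower target genes, and 216 to 352 higher and 301 to 415 lower probe sets. In these fits *Lef1* ranged from -0.023 to 0.084, *Lrp5* from -0.10 to 0.24, *Lrp6* from -0.091 to 0.086 and *Tcf7l2* from -0.048 to 0.024. Where 1 control remained, it was assumed to vary like the other group. The cause of these changes was not tested. Signals near the background level of 3.59 limit what can be said of the 21 Wnt genes at or below it.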

Other observations

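Among the 50 Wnt genes, 9 (18%) had the same value on at least 1 pair of arrays to 5 decimals, as did 27.3% of all probe sets. They include *Rspo4*, at 4.85 on MM.1S replicate 1 and control replicate 1, and *Wnt5a*, at 4.76 on MM.1S replicate 3 and control replicate 1. In *Dkk2*, MM.1S replicate 1 and both controls shared 2.19, so its SD of 0 between controls does not measure their spread.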
